A study of Mus musculus with 27 samples.

Results

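The regions described here are lamin B1 + regions of the mouse genome that had no lamin B1 peak in untreated cells, had one after 8 h of TGF-β and still had one at 24 h. They were found by merging the lamin B1 ChIP-seq peaks of the 3 time points wherever peaks touched or overlapped, and keeping the merged regions that held a peak at 8 h and at 24 h and none at 0 h. This left 2574 of 13306 merged regions, or 19.3%, which are called gained and kept below. The cells were NMuMG, an epithelial line from normal mouse mammary gland grown with insulin, either untreated (0 h) or given TGF-β at 1 to 5 ng/ml for 8 or 24 h to induce epithelial-to-mesenchymal transition (EMT). Lamin B1 ChIP-seq and ATAC-seq had 1 library at each of the 3 times, and each ChIP library mixed parallel immunoprecipitations, so no replicate error exists for either assay. RNA-seq had 2 libraries per time from parental cells (6 in all) and 2 per time from cells infected with a control shRNA or with an shRNA against lamin B1 (12 in all, the latter called KD), which the study's methods name biological replicates. The number of hairpins and of infected clones is not given in the labels, so an effect of the hairpin on other transcripts and an effect of less lamin B1 cannot be told apart. The chromatin for the ChIP was an accessible-chromatin fraction obtained by light sonication, and compact chromatin was under-represented in it by design.

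Because the lamin B1 peaks at 0, 8 and 24 h chose the members, their presence, their absence and their scores are given as a description with no test. The members were compared with the regions that had a peak only at 8 h (4439), at all 3 times (2431) or only at 24 h (1692). The lists held 4645 peaks at 0 h, 10484 at 8 h and 7083 at 24 h, and the lowest score in each was 50, so a region just below that score at 0 h counts as unmarked. Depth is unknown, since peak lists hold no read totals. Intervals on shares of regions are 95% Wilson or Newcombe intervals and cover counting error only, since regions of 1 library are not replicates. Among the markers of the cell line, E-cadherin (Cdh1) stood at 113.4 and 118.7 FPKM in the 2 untreated parental libraries and at 39.4 and 41.1 at 24 h, and the mean of keratin 8 (Krt8) was 2027 FPKM when untreated. Epcam, another epithelial surface marker, was at only 0.383 and 0.319 FPKM when untreated. Markers of leukocytes, endothelium and fibroblasts (Ptprc, Pecam1, Cdh5, Pdgfra, Dcn, Lum) were between 0 and 1.52 FPKM in every parental library.

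Lamin B1 is an intermediate filament protein of the nuclear lamina, the meshwork under the inner nuclear membrane, where lamina-associated domains are typically AT-rich, gene-poor and silent. A pool of B-type lamin also lies in the nuclear interior. CpG islands are GC-rich stretches that keep their CpG dinucleotides and cover the promoters of most housekeeping genes and many developmental regulators. TGF-β is a cytokine that signals through paired serine/threonine kinase receptors and SMAD proteins and drives EMT in mammary epithelium.

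Sequence is printed for 3 members, chosen by rule, to show what kind of DNA they were: a promoter member with high scores at both times (Nkx6-2, also the highest-scoring of the developmental regulators) and the highest-scoring members of the TGF-β pathway and mesenchymal lists (Inhbb, Twist2). Each is the plus strand of mm9, read 5′ to 3′, from the stretch of up to 300 bp nearest the middle of the member that holds no annotated untranslated region, and capitals mark CpG dinucleotides.
Nkx6-2, chr7:146767810-146768109: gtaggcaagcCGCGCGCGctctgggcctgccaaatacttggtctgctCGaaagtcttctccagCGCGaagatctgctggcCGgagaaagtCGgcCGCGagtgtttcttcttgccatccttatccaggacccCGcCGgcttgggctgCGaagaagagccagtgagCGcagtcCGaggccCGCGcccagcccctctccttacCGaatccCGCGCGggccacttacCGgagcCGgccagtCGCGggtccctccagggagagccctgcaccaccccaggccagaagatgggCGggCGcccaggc
Inhbb, chr1:121318826-121318895: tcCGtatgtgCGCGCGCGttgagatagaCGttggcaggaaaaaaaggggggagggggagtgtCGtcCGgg
Twist2, chr1:93697738-93698037: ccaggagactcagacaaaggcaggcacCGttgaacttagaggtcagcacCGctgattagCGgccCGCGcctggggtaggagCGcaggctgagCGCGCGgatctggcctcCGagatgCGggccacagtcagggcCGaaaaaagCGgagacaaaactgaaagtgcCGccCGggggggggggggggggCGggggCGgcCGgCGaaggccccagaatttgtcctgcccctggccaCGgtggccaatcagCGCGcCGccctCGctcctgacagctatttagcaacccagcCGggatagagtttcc
The Nkx6-2 stretch lay 737 bp downstream of the transcription start site (TSS) and held 28 CpG in 300 bases at 67.3% GC, and the Twist2 stretch, centred 151 bp upstream, held 25 at 66.7%. Only 70 bases free of annotated untranslated region were left near the start of Inhbb, with 8 CpG.

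The members were moderate peaks at both times. The MACS score at 8 h ran from 50 to 370.3 with a median of 86.5 (quartiles 68.7 and 114.8), and at 24 h from 50 to 479.8 with a median of 82.9 (quartiles 62.9 and 112.2). The score was higher at 8 h in 1388 members (53.9%) and higher at 24 h in 1186, and the median ratio of the 24 h score to the 8 h score was 0.963. Across the members the scores of both times had a Spearman correlation of 0.286 over 2574 regions of 2 libraries, against 0.488 over the regions marked at all times. Both scores chose the members and the classes differ in their range of scores, so no conclusion is drawn from this difference. Both scores reached 100 in 458 members (17.8%). At the other end, 381 members (14.8%) owed their place to a peak scoring under 55, and 886 regions (20%) of those marked only at 8 h and 365 (21.6%) of those marked only at 24 h had a score that low. A 0 h peak lay within 1000 bp of 60 members (2.33%), the nearest at 19 bp, and the median distance to one was 110236 bp.

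**Figure D1:**
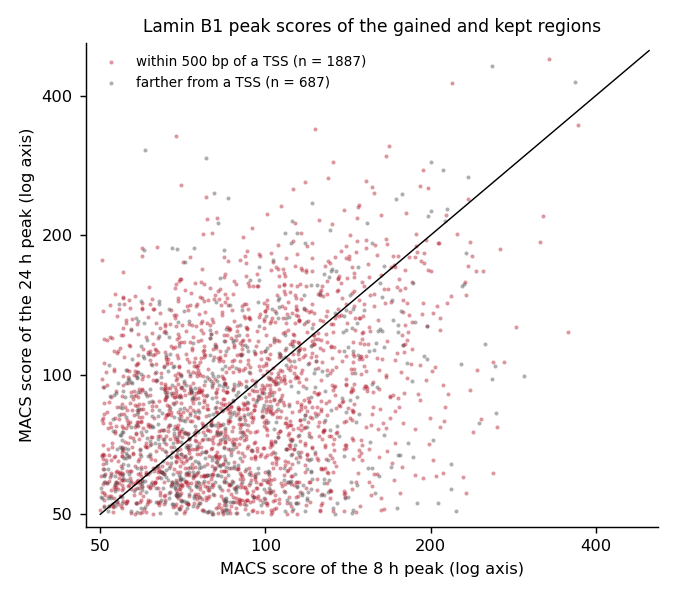
MACS score of each gained and kept region at 8 h (x axis) and 24 h (y axis), both on log axes, with the line of equal scores. Red points are the 1887 members within 500 bp of a TSS and grey points the 687 farther away, and both kinds scatter widely on either side of the line, with 53.9% of members higher at 8 h.

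Members covered 3.14 Mb of the genome in all, with a median width of 1153 bp (384 to 6549). The 8 h peak was the wider of the pair in 1827 members (71.0%), with a median of 1038 bp against 901 bp at 24 h. In 50.8% of members the shorter peak lay wholly inside the longer one, and only 29 members rested on an overlap of under 50% of the shorter peak. The members took 12.8% of the merged regions on chromosome 19 and 28.6% of those on chromosome 18, with 24.9% on the X chromosome. Their density was 1.86 members per Mb on chromosome 19, 0.650 on chromosome 18 and 0.462 on the X. They lay apart from each other, with a median gap of 172.0 kb to the next member, and a median of 187.2 kb to the nearest region marked at all times and 92.1 kb to the nearest marked only at 8 h.

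Most members lay at gene starts. A TSS was within 500 bp of 1887 members, or 73.3% (71.6 to 75), and 1706 (66.3%) contained one. This share was above that of regions marked only at 8 h (41.3%, a difference of 32.0 percentage points, 29.7 to 34.2) and only at 24 h (51.9%, difference 21.4, 18.5 to 24.3), and below that of regions marked at all times (82.6%, difference -9.29, -11.6 to -7.00). The classes differed in width, so the count was repeated on the middle 300 bp of every region: 67.3% of members then passed, 28.7 points (26.3 to 31.0) above the regions marked only at 8 h and still below those marked at all times (difference -5.07, -7.60 to -2.53). Taken once for each of 2015 genes with a member at the start, the member's middle lay a median of 205.5 bp downstream of the TSS (quartiles 62.0 and 358.2). It was downstream in 81.8% of cases, although most of these members spanned the start itself. Of the rest, 348 (13.5%) overlapped an exon farther away, 169 (6.57%) lay 500 to 2500 bp from a TSS, 132 (5.13%) lay between genes and 38 (1.48%) in an intron.

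The members were GC-rich and dense in CpG. Their GC content was 63.0% ± 5.30 (SD, n = 2574 regions), against a mean of 59.0% in regions marked only at 8 h (difference 4.05 points, 3.79 to 4.31), 62.3% in those marked at all times (0.746, 0.482 to 1.01) and 60.5% in those marked only at 24 h (2.54, 2.04 to 3.04). They held 7.65 CpG per 100 bp against 4.97, 7.56 and 6.47 in these classes. A region was called CpG island-like where its GC was above 50% and its ratio of observed to expected CpG above 0.6, which held for 84.3% of members (82.8 to 85.7), 44.0% of the regions marked only at 8 h, 88.9% of those marked at all times and 63.8% of those marked only at 24 h. Among regions farther than 500 bp from the start of any annotated gene the ratio averaged 0.643 in members and 0.436 in regions marked only at 8 h, though some of these regions lie at other transcript starts of a gene (81% of all members were within 500 bp of any transcript start).

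Short motifs were counted on either strand in the 300 bp at the middle of each region, and no searched motif contains another. The GC box GGGCGG, the letters bound by SP and KLF factors, was in 68.6% of members, 43.8% of regions marked only at 8 h and 69.6% of those marked at all times, and in 45.7% of equally long windows around the 22380 protein-coding TSSs. The short SMAD-type motif CAGACA was in 10.8% of members against 19.2% of regions marked only at 8 h (difference -8.35, -10 to -6.66) and in 19% of the TSS windows. The palindrome GTCTAGAC was in only 6 members (0.233%). AP-1 (TGANTCA) was in 1.94% against 3.76% of regions marked only at 8 h, and CCAAT in 13.8% against 20.9%. Regions marked at all times were like the members, with CAGACA in 10.8%, AP-1 in 2.51% and CCAAT in 14.2%. Each of these differences from the members had an interval that held both signs. The E2-box CACCTG, the letters read by SNAIL and ZEB factors, was in 24.9% of members, 30.8% of regions marked only at 8 h and 21.6% of those marked at all times. The ETS motif CCGGAAG, the NRF1 core GCATGCGC, the TEAD motif GGAATG and the cAMP response element TGACGTCA were in 9.09%, 1.90%, 6.72% and 0.971% of members, each below its share of the TSS windows (11.3%, 3.10%, 12.4% and 2.23%). For regions within 500 bp of a TSS, the ETS motif was in 10.2% of members and 9.66% of regions marked at all times. The TSS windows were centred on the start and those of the members on the region, so position differs between them as well. AT-containing motifs are rarer by chance in GC-rich sequence, and the parts of position and base composition in these shares were not tested.

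Many of the members were accessible before lamin B1 was detected there. An ATAC peak overlapped 40.2% of members (38.3 to 42.1) at 0 h, 33.3% (31.5 to 35.1) at 8 h and 59.8% (57.9 to 61.7) at 24 h. The 24 h list was far longer (33811 peaks, against 9782 at 0 h and 10340 at 8 h), and with the 3 lists set to equal length the shares were 40.2%, 32.1% and 38.2%, so no rise at 24 h was seen once list length was held equal. At each time the members stood between the other classes. At 24 h the share was 32.5% in regions marked only at 8 h (difference 27.3, 25 to 29.6) and 85.3% in those marked at all times (difference -25.5, -27.9 to -23.1), and with equal lists these differences were 20.3 points (18.1 to 22.5) and -18.0 (-20.7 to -15.3). Over the 3 times, 1028 members (39.9%) had no ATAC peak, 760 (29.5%) had one at every time, 414 (16.1%) only at 24 h, 268 (10.4%) at 0 and 24 h and 97 (3.77%) at 8 and 24 h. At gene starts the shares were 49.4%, 41.3% and 71.5%, and farther away 15.0%, 11.4% and 27.5%.

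**Figure D2:**
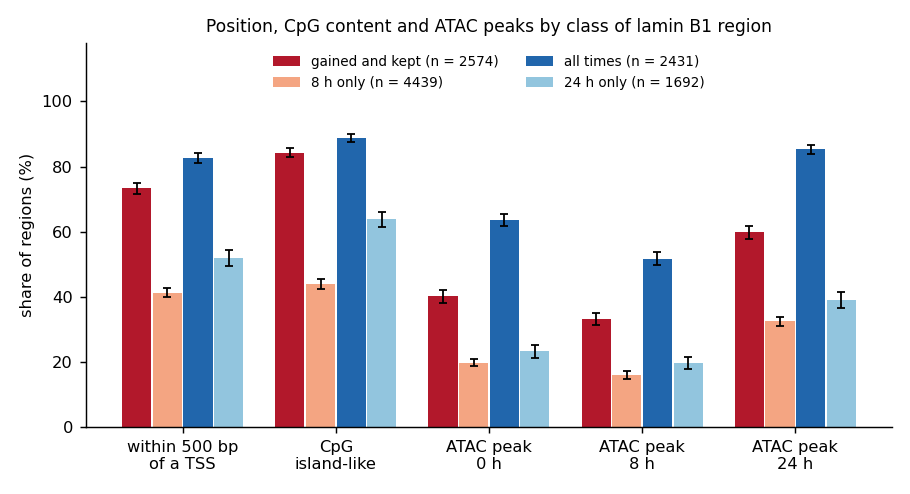
Share of regions (%, bars from 0, with 95% Wilson intervals for counting error) within 500 bp of a TSS, CpG island-like, and overlapping an ATAC peak at 0, 8 and 24 h, for the 4 classes of lamin B1 regions. Gained and kept regions lie between the regions marked only at 8 h and those marked at all times on every measure, close to the latter for TSS (73.3% against 82.6%) and island-like sequence (84.3% against 88.9%) and farther from them for ATAC at 24 h (59.8% against 85.3%).

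Members were found at every level of the 8 h score, which is one of the values that chose them and is described with no test. When all regions with an 8 h peak were split into 4 bins of equal size at 8 h scores of 62.1, 79.7 and 114.0, members made up 16.4%, 24.4%, 33.1% and 25.6% of the bins from weakest to strongest, while the regions marked only at 8 h fell from 70.7% to 11.4% and those marked at all times rose from 5.30% to 54.9%. Within each of the 4 bins the members were more often at a TSS than the regions lost by 24 h: 70.4% against 33.1% in the weakest bin and 75.1% against 58.3% in the strongest. The same held for an ATAC peak at 24 h (53.9% against 26.6%, and 62.0% against 42.7%) and for island-like sequence (77.3% against 34.3%, and 87.8% against 63.4%). From the weakest to the strongest bin the members' share at a TSS moved by less than that of the regions marked only at 8 h, while their share of island-like sequence rose from 77.3% (73.1 to 81) to 87.8% (85.1 to 90.1). Against regions marked at all times, the island-like difference was -4.45 points (-11.4 to 3.76) in the weakest bin. In the strongest it was -2.21 (-5.29 to 0.615). Its interval held both signs in each of the 4 bins, so this gap was not resolved at like score. The TSS difference was -5.46 (-13.3 to 3.37) in the weakest bin and -8.89 (-12.8 to -5.17) in the strongest. Its interval was wholly negative in all bins but the weakest. For ATAC at 24 h it was negative in every bin.

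**Figure D3:**
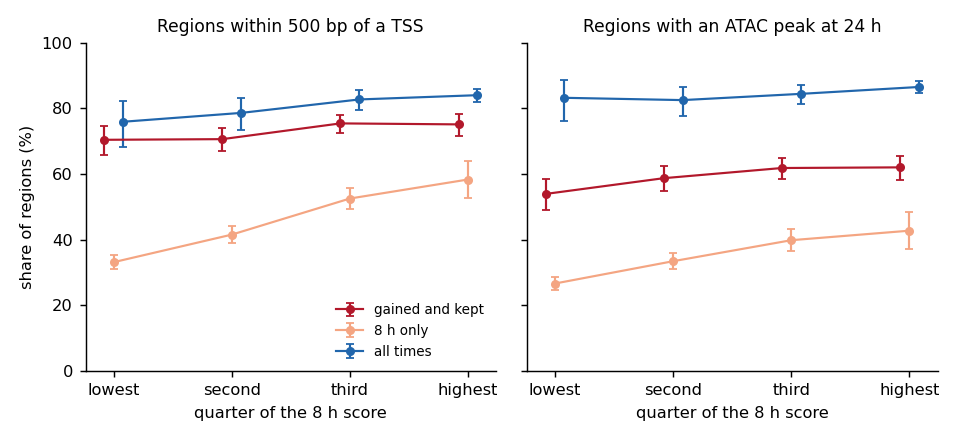
Share of regions (%) within 500 bp of a TSS and with an ATAC peak at 24 h, by bin of the 8 h score from weakest to strongest, for gained and kept regions, regions marked only at 8 h and regions marked at all times. The line of the gained and kept regions is nearly flat (70.4% to 75.1% at a TSS) while that of the regions marked only at 8 h climbs from 33.1% to 58.3%.

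A member lay at the promoter, within 500 bp of the start, of 2015 of 21994 genes that could be placed (9.16%), and 1915 of these genes were protein-coding. Parental expression was listed for 2006 of them. Their median FPKM (sequenced fragments scaled by transcript length and library size) was 7.44 and 7.62 in the 2 untreated libraries, 7.07 and 7.33 at 8 h and 7.59 and 7.53 at 24 h. Medians were similarly steady for genes marked at all times (14.3, 14.1 and 14.7 FPKM at 0, 8 and 24 h). The same held for genes with a region only at 8 h (5.25, 4.98 and 5.29). FPKM are scaled to library size, which limits how far such a median can move, so no conclusion is drawn from its steadiness. The median of library means was 7.56 FPKM at 0 h, above that of genes with a region only at 8 h (5.25) or only at 24 h (5.66) and below that of genes marked at all times (14.3), while the median gene with no lamin B1 region was at 0.0419. The share of genes at 1 FPKM or more when untreated was 70.4% (68.4 to 72.4) for member genes, 88.4% for genes marked at all times and 33.7% for genes with no lamin B1 region. A member was at the promoter of 5.37% of genes under 1 FPKM, 12.3% of those from 1 to 10, 14.3% of those from 10 to 100 and 10.8% of those at 100 or more.

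The member genes fell into expressed and silent promoters along with their ATAC peaks. Where the member had an ATAC peak at all times (782 genes) the median was 15.6 FPKM when untreated and 92.8% of genes reached 1 FPKM. Where it had none (512 genes) the median was 0.0319 FPKM and 13.1% reached 1 FPKM (10.4 to 16.3), and these levels were much the same at 8 h (0.0321) and 24 h (0.0362). Genes whose member had an ATAC peak only at 24 h (350) had a median of 9.08 FPKM at 0 h and 9.47 at 24 h, so most of them were already expressed before that peak was listed. In bulk samples, fewer cells expressing a gene and less RNA per cell cannot be told apart.

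The strongest promoter members covered genes of unrelated roles. Pabpc1, the cytoplasmic poly(A)-binding protein, carried the highest scores on this measure (370.3 at 8 h and 344.7 at 24 h) and was among the most abundant transcripts, with 628.6 and 645.5 FPKM untreated, 649.8 and 675.5 at 8 h and 644.6 and 632.7 at 24 h. Its change at 24 h was 0.00 ± 0.0416 (log2, SE), so a strong new lamin B1 peak stood over a promoter with no detected change in output in parental cells. In control shRNA cells Pabpc1 fell by 0.44 at 24 h (adjusted p = 4.25e-05). Nkx6-2, a homeobox factor of neural development, had the highest 24 h score of these (327.9 and 479.8) and stayed between 0.112 and 0.331 FPKM in all 6 libraries. Dyrk1a, a protein kinase, scored 233.4 and 238.8 and kept to 9.30 to 10.3 FPKM. Bend3, a BEN-domain repressor (320.1 and 220.1), went from 7.43 and 7.88 to 5.57 and 5.19 FPKM at 24 h and fell by 0.44 on the log2 scale (adjusted p = 7.20e-04, limma). Nanos1, an RNA-binding translational repressor (218.6 and 425.8), had 4.17 and 4.23 FPKM untreated, 1.99 and 2.28 at 8 h and 1.28 and 0.945 at 24 h, with no overlap between times, and fell by 1.30 at 24 h (adjusted p = 1.96e-05). Plcl2 and Jhdm1d, a histone demethylase, also fell at 24 h (by 0.35 and 0.58), while the kinase Pkn2 (-0.07, adjusted p = 0.264) and Pphln1 (0.06, adjusted p = 0.259) did not pass the test. Osbpl6, of the oxysterol-binding family, scored 235.6 and 193.7 while its transcript did not exceed 0.139 FPKM in any parental library. Ranked by the lower of both scores, the first of all members lay between genes, chr3:5860287-5860990, with 366.1 at 8 h, 428.4 at 24 h and an ATAC peak at all 3 times.

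Whether these genes changed with TGF-β was tested with limma on log2(FPKM + 1), on which fold changes of low genes are understated, over all genes that reached 1 FPKM in 2 or more libraries. Of the 2006 member genes 1449 passed this filter, and a gene that passed it only through the time at which it was high had to differ. At 8 h, 330 member genes were higher than untreated (22.8%, against 22.4% of all 11309 genes tested) and 456 were lower (31.5%, against 32.1%). At 24 h, 503 were higher (34.7%, against 33.4%) and 536 lower (37.0%, against 37.1%). Under quantile normalization the counts were 399 higher and 386 lower at 8 h and 544 and 495 at 24 h, so which direction was the more frequent turned with the scaling at both times. The median log2 change was -0.0397 at 8 h and -0.00601 at 24 h, against -0.0463 and -0.0189 over all genes. Changes of 2-fold or more were found in 41 member genes at 8 h (2.83%, against 4.30% of all genes) and 124 at 24 h (8.56%, against 11.8%).

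The member genes with the largest rises in parental cells included matrix, junction and signalling genes. Sdc3, a cell-surface heparan sulfate proteoglycan, went from 13.5 and 14.9 FPKM to 85.3 and 66 at 8 h and 144.3 and 133.3 at 24 h, a rise of 2.33 ± 0.114 and 3.20 ± 0.114 (log2, SE, adjusted p = 3.32e-05 and 1.20e-06). Its member (chr4:130348114-130349038, scores 59.7 and 84.5) was a weak peak with no ATAC peak at any time. Pkp1, the desmosomal protein plakophilin 1, rose from 5.00 and 5.50 FPKM to 54.3 and 49.7 at 24 h (3.09 ± 0.0860). The kinase Dyrk3 rose more at 8 h (1.83) than at 24 h (1.49), with 12.9 and 12.8 FPKM untreated, 54.3 and 42.4 at 8 h and 39.1 and 36.7 at 24 h. Pdlim7, an actin-associated PDZ-LIM protein, and Vegfc, a ligand of lymphatic vessel growth, rose by 1.57 and 1.24 at 8 h and by 1.69 and 1.93 at 24 h. Others rose mainly late. Nrep went from 6.64 and 7.30 FPKM to 8.31 and 11.2 at 8 h and 43.4 and 48.2 at 24 h, Map2, a microtubule-associated protein, from 4.53 and 4.34 to 24.3 and 25.9 at 24 h, and the metalloprotease Adamts7 from 2.15 and 2.21 to 16.7 and 16.5. Sertad4 rose by 2.26 at 24 h.

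The largest falls were of similar size. Adap1, an ARF GTPase-activating protein, had 18.1 and 18.3 FPKM untreated, 2.05 and 4.54 at 8 h and 0.441 and 0.565 at 24 h, a fall by 2.22 and then by 3.68 on the log2 scale (SE 0.240, adjusted p = 3.54e-04 and 1.31e-05), and its member had no ATAC peak at any time. Dlk2, of the Delta-like family, went from 5.86 and 5.15 to 0.361 and 0.656 FPKM already at 8 h. Gclc, the catalytic subunit of the enzyme that limits glutathione synthesis, went from 129.7 and 134.8 to 33.4 and 48.4 at 8 h and 29.2 and 31.3 at 24 h. Nrg1, the ERBB receptor ligand neuregulin 1, carried one of the strongest members of this group (214.4 and 143.0) and had 15.0 and 14.5 FPKM untreated, 3.78 and 5.09 at 8 h and 6.10 and 5.17 at 24 h. Klf5, an epithelial Krüppel-like factor, fell by 1.98 at 24 h, from 32.7 and 30.8 to 7.42 and 7.22 FPKM, and Phlda2 fell by 2.63, from 7.0 and 7.19 to 0.344 and 0.273. Bace2 and Ccdc3 fell by 2.17 and 1.63.

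The control shRNA cells gave the same measurement in libraries that had not chosen these genes. At 24 h Sdc3 rose there by 3.92 (adjusted p = 1.32e-10), Pkp1 by 3.75, Vegfc by 2.61, Map2 by 2.15 and Nrep by 1.5, and the falls were -3.82 for Adap1, -3.20 for Dlk2, -2.66 for Phlda2, -2.58 for Gclc and -1.93 for Klf5. At 8 h Nrep did not pass the test in these cells (-0.64, adjusted p = 0.130), whereas in parental cells it rose by 0.42.

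**Figure D4:**
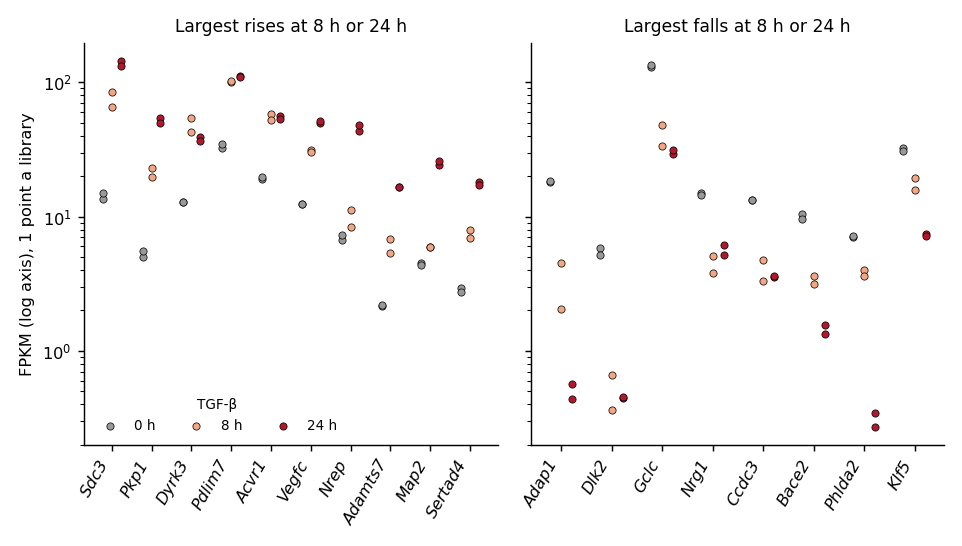
FPKM in each of the 6 parental libraries (log axis), by time of TGF-β, for the member genes named for the largest rises and falls, 1 point per library. For Sdc3 the points of the 2 libraries lie close together next to the distance between times (13.5 and 14.9 FPKM untreated against 144.3 and 133.3 at 24 h). The points of a time lie farther apart for others, such as Adap1 and Nrep at 8 h.

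Genes of the TGF-β pathway were frequent among the member promoters. Of 43 placed genes of this list, 12 (27.9%) had a member, against 9.16% of all genes, while 11 were marked at all times, 5 only at 8 h and 4 only at 24 h. The list was thus about as frequent among genes marked at all times, a class of similar size (2198 genes with parental values, against 2006). Of the 12 genes, 10 reached 1 FPKM when untreated. Among all genes at 1 to 10 and 10 to 100 FPKM, 12.3% and 14.3% had a member. The list was chosen with earlier results known and the share carries no test. The receptors were Acvr1, Tgfbr2 and Bmpr1b. Acvr1, a type I receptor of the BMP and activin branch, rose from 19.2 and 19.8 FPKM to 58.3 and 52.7 at 8 h (1.46 ± 0.0586) and stayed up at 24 h. Tgfbr2, the type II receptor for TGF-β itself, went from 22.7 and 23.4 to 18.2 and 20 at 8 h and then to 33.1 and 33.3 at 24 h, a fall by 0.26 followed by a rise of 0.51. Bmpr1b was not above 0.386 FPKM in any parental library. Of the extracellular members, Inhbb, the activin βB subunit shown above (chr1:121317621-121318899, scores 105.8 and 109.2), fell by 0.60 at 8 h, from 2.06 and 1.76 to 0.802 and 1.03 FPKM. Noggin (Nog), a BMP antagonist, went from 0 and 0.0172 to 1.09 and 0.908 FPKM at 24 h, below the filter. Follistatin (Fst), which binds activin, went from 4.62 and 4.25 to 3.74 and 3.56 at 8 h and 7.30 and 7.13 at 24 h.

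The intracellular inhibitors of the pathway rose together. Smad7, the inhibitory SMAD, went from 4.92 and 5.19 FPKM to 11.9 and 9.64 at 8 h (0.95 ± 0.0929, adjusted p = 2.31e-04) and 11.3 and 10.5 at 24 h. The SMAD corepressors Ski and Skil rose by 1.16 and 1.11 at 8 h and 1.07 and 1.15 at 24 h. The ubiquitin ligases Smurf1 and Smurf2, which turn over SMADs and receptors, rose by 0.51 and 0.49 at 8 h and 0.43 and 0.61 at 24 h. Smad5, a BMP-branch SMAD, rose by 0.27 and 0.49. In all, 7 of the 10 tested genes were higher and 3 lower at 8 h (7 and 2 under quantile normalization), against 22.4% and 32.1% of all genes. At 24 h, 9 were higher and 1 lower, against 33.4% and 37.1%, with a median log2 change of 0.60 against -0.0189 over all genes. In control shRNA cells, 9 of 11 tested were higher at 24 h.

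Developmental regulators were over the background as well but were mostly silent. Of 143 placed genes for developmental transcription factors outside the Hox clusters, 31 (21.7%) had a member, against 9.16% of all genes. In the other classes, 18 were marked only at 8 h, 15 at all times and 10 only at 24 h. Of the 30 member genes with a parental value, 6 reached 1 FPKM when untreated. Foxc1, a forkhead factor, carried scores of 316.1 and 193.5 (chr13:31897899-31901031) and went from 0.476 and 0.444 FPKM to 1.13 and 1.22 at 24 h, a rise of 0.58. Its untreated libraries were below 1 FPKM, so it passed the filter through treated libraries and this rise is no test. Foxb2 (199.9 and 167.0) and Foxl2 (68.8 and 327.7) were listed at 0 in all 6 libraries. Barhl2 scored 355.1 at 8 h and 123.4 at 24 h and went from 0.969 and 0.939 FPKM to 0.0604 and 0.0821 at 24 h, below the filter. Of the 9 tested genes of this list, 4 were higher at 8 h (against 22.4% of all genes) and the other 5 did not pass the test, and 7 were higher and 1 lower at 24 h (against 33.4% and 37.1% of all genes, median 0.36). Since only 6 member genes of the list reached 1 FPKM when untreated, some of the 9 passed the filter through treated libraries. The filter favoured a rise in those, so no conclusion is drawn from these counts beside the shares of all genes. Sox9 had 5.51 and 5.99 FPKM untreated, 11.8 and 12.1 at 8 h and 11 and 10.1 at 24 h, a rise of 0.94 and 0.77 while in control shRNA cells it did not pass the test (0.24 and 0.02, adjusted p = 0.295 and 0.936). Tbx18 rose by 0.41 and 0.70 and Sox2 by 0.32 at 24 h. Whether these genes reached 1 FPKM when untreated is not given here, so their rises are described with no test. Foxo6 fell by 0.25 at 24 h, a call that was lost when some single libraries were left out.

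Of 38 placed Hox genes, 5 had a member (13.2%): Hoxd9, Hoxd1, Hoxa11 and Hoxd12, each listed at 0 in every parental library, and Hoxa5, at 0.479 and 0.460 FPKM untreated and 0.886 and 0.725 at 24 h. Of 28 Wnt ligands and Frizzled receptors, 5 had a member (17.9%), and the receptor Fzd2 (157.4 and 246.7), the only one of them above the filter in parental cells, rose from 4.88 and 4.49 FPKM to 11.4 and 10.8 at 8 h and 20.3 and 19.9 at 24 h (1.89 ± 0.0551). The Wnt1 promoter carried scores of 107.4 and 101.8 while Wnt1 went from 0 and 0.0273 to 0.718 and 0.653 FPKM at 24 h. The other members of this list were Wnt5b, Wnt9b and Fzd3, none above 0.246 FPKM.

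Of 15 mesenchymal genes 2 were members (13.3%, against 9.16% of all genes), Twist2 and Vim, and of 13 epithelial genes there were none. Twist2, a basic helix-loop-helix factor (chr1:93697150-93698897, 143.6 and 79.9), fell from 9.62 and 8.86 FPKM to 3.35 and 4.25 at 8 h and 4.04 and 3.89 at 24 h, by 1.10 and 1.04. Vimentin (Vim), an intermediate filament protein, had 1371 and 1361 FPKM untreated, 1665 and 1728 at 8 h and 1199 and 1164 at 24 h, and its fall by 0.21 at 24 h was not called under quantile normalization (-0.01). Of 13 lamina genes none was a member and 8 were marked at all times. Among chromatin genes, members lay at the promoters of Ring1 and Bmi1 of Polycomb complex PRC1 and of Ezh2 and Eed of PRC2. Ezh2, the methyltransferase subunit, went from 44.1 and 41.2 to 29.5 and 29.6 FPKM at 24 h and fell by 0.51, and Eed fell by 0.41.

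The remaining lists were near or below the background. Of 83 ribosomal protein genes 6 were members (7.23%): Rpl21, Rps20, Rpl27a, Rpl31, Rpl26 and Rpl11. All 6 were lower at 24 h, led by Rpl26, which fell by 0.67, but under quantile normalization only 2 were, and the value for Rpl11 turned from -0.22 to 0.01 (adjusted p = 0.852). Of 68 clustered histone genes 2 were members (2.94%), Hist1h1e and Hist1h1c, and of 67 chemokine and interleukin genes 1 was (1.49%), Cxcl12, which rose from 3.12 and 2.89 to 7.84 and 8.19 FPKM at 24 h (1.17).

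The KD was first checked on Lmnb1 itself, which carries no member. Control cells had 29.2 and 36.5 FPKM at 0 h, 32.8 and 32.1 at 8 h and 18.4 and 17.9 at 24 h, and KD cells 9.01 and 9.27, 7.79 and 8.14, and 4.37 and 7.52, so the groups did not overlap at any time (log2 difference -1.90 ± 0.181 at 8 h, adjusted p = 1.89e-04). Of 1977 member genes with values in these cells, 1442 passed the filter. KD and control differed at 0 h in 287 of them (19.9%, against 19.7% of all 11450 genes tested). At 8 h, 263 were higher in KD (18.2%, against 19.3%) and 249 lower (17.3%, against 16.5%). At 24 h, 216 were higher (15.0%, against 16.8%) and 207 lower (14.4%, 12.6 to 16.3 for counting error only, against 11.5%). The split was 180 higher and 249 lower under quantile normalization, but 55 higher and 33 lower with only the compared groups in the fit. The lower share was 13.4% among genes marked at all times and 10.0% among genes with no lamin B1 region. As the split turned with the fit and the scaling, no conclusion is drawn from these shares. A difference of 2-fold or more was called in 1 member gene at 8 h (0.0693%, against 0.803% of all genes) and 2 at 24 h (0.139%, against 0.533%). These counts moved with single libraries. The 0 h count was 70 or 83 without either KD library of 0 h and 458 without either KD library of 24 h, the 8 h count was 300 to 317 without any 1 of the 4 libraries of 8 h, and the 24 h count was 158 or 191 without either control library of 24 h.

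Fst showed the largest rise in KD at both treated times. It had 5.91 and 5.84 FPKM in control and 8.62 and 8.93 in KD cells at 0 h, 2.78 and 3.0 against 9.23 and 9.18 at 8 h, and 6.42 and 5.95 against 15.1 and 14.3 at 24 h. The differences were 0.51, 1.39 ± 0.0536 and 1.13 ± 0.0536 (adjusted p = 5.92e-04, 2.76e-06 and 1.62e-05), and while Fst fell by 0.82 at 8 h in control cells, the KD libraries of 8 h were not below those of 0 h. Tgfbr2 was higher in KD by 0.41 at 0 h, 0.47 at 8 h and 0.56 at 24 h. Over the TGF-β list, 5 of 11 tested member genes were higher and 2 lower in KD at 8 h (against 19.3% and 16.5% of all genes), and 4 were higher and 2 lower at 24 h (against 16.8% and 11.5%, and 2 and 2 under quantile normalization). At 8 h, Spats2l, Gchfr, a regulator of GTP cyclohydrolase, and Slc27a4, a fatty acid transporter, were higher in KD by 0.97, 0.87 and 0.82. At 24 h, Matn2 (0.83), Lamc1, the laminin γ1 chain (0.73), and Dnajc22 (0.68) were higher. The KD libraries of Lamc1 at 24 h stood at 31.6 and 42.0 FPKM against 21.0 and 22.1 in control.

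The genes with the largest falls in KD differed in when they were lower. Sumf1, which activates sulfatases, had 13.8 and 12.8 FPKM in control and 4.88 and 5.31 in KD cells at 0 h and differed by -1.23, -0.96 and -0.97 at 0, 8 and 24 h. Cnot6, a deadenylase subunit, differed by -0.96, -0.93 and -1.07. Msh6, of mismatch repair, and Chaf1a, a subunit of the replication-coupled histone chaperone, were at 30.0 and 29.7 and at 29.8 and 30.2 FPKM in KD cells at 0 h, within the control range (27.9 and 33.9, 29.2 and 34.8), but at 12.4 and 11.9 against 22.2 and 20.1, and 10.5 and 10.6 against 17.9 and 18.8, at 8 h (-0.75 ± 0.0840 and -0.75 ± 0.0823). At 24 h the proliferation marker Mki67 stood at 4.77 and 3.74 FPKM in KD against 8.38 and 9.0 in control (-0.89) and cyclin A2 (Ccna2) at 8.79 and 9.97 against 17.9 and 16.6 (-0.82), and Ccna2 was already lower in KD at 0 h (-0.31, adjusted p = 0.0396) and 8 h (-0.33, adjusted p = 0.0195).

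Whether the response to TGF-β itself differed between KD and control was tested as an interaction, which shares its 0 h libraries between both times. It was called in 55 member genes at 8 h (3.81%, against 4.06% of all genes) and 67 at 24 h (4.65%, against 4.72%). Of these, 37 were positive and 18 negative at 8 h and 47 and 20 at 24 h, but under quantile normalization the splits were 26 and 24 and 36 and 34. These counts rest on single libraries. At 8 h, leaving out any 1 of the 8 h or KD 0 h libraries left 2 to 5 member genes and either control library of 24 h left 18, whereas without control replicate 2 of 0 h or either KD library of 24 h there were 168 to 172. At 24 h, the count was 8 to 25 without any 1 of the control 24 h, KD 0 h or 8 h libraries, 172 without control replicate 2 of 0 h and 374 without KD replicate 1 of 24 h. The named differences at 8 h were positive for Fst (0.88 ± 0.0758), Gchfr (0.71) and Il13ra1, an interleukin-13 receptor chain (0.66), and negative for Tmem171 (-1.06), Zfp367 (-0.82) and Wdhd1, a replication factor (-0.79). Those of Gchfr, Il13ra1, Zfp367 and Wdhd1 each lost their call when single 8 h or KD 0 h libraries were left out, with adjusted p-values up to 0.110, 0.0856, 0.0935 and 0.112, and that of Tmem171 when control replicate 2 of 8 h was (0.0572), while the values kept their sign.

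**Figure D5:**
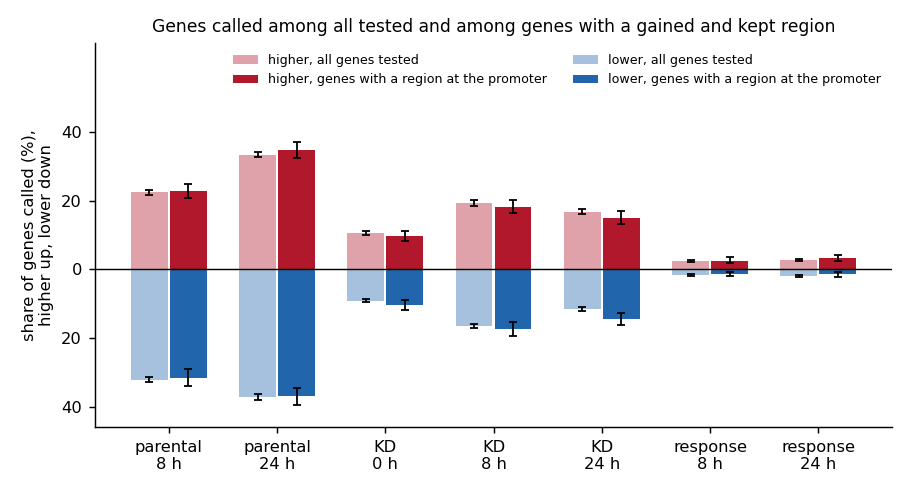
Share of genes (%, bars from 0, with 95% Wilson intervals) called higher or lower at an adjusted p below 0.05 (limma) in 7 comparisons, for all genes tested and for genes with a gained and kept region at the promoter. The pairs of bars lie close together, as for genes higher at 24 h in parental cells (34.7% against 33.4%), and genes lower in KD at 24 h stand at 14.4% against 11.5%. The split of higher and lower genes in KD at 24 h turned with the scaling and with the groups in the fit.

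The 5 members farthest from the annotated start of any gene had no ATAC peak at any time. Distances here are to gene starts, and those to other transcript starts of a gene were not measured. A member over an annotated exon of Rims1, a synaptic scaffold gene (chr1:22539842-22541175, 181.4 and 105.8), was GC-rich at 62.7% although 370.5 kb from a gene start. Others lay in an exon of the GABA receptor gene Gabrg3 (chr7:63971483-63972339, 60.2 and 51.8) and between genes at chr19:54578290-54579553 (67.3 and 64.5) and chr16:69429753-69430827 (99.5 and 85.9). These were from 433.2 to 476.4 kb from a gene start.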

How the data were processed

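ChIP and ATAC peak lists were deposited as MACS intervals with a score per peak, called by the authors for each library. The lamin B1 score is on the caller's own scale, and the caller's version and control are not given in the sources used here. Expression was deposited as FPKM made by the authors. Per the submitters' processing notes Bowtie, TopHat, Cufflinks and mm9 were used. The tables' columns carry no header and were taken in the order the tables' titles give. Hi-C was not analysed here, and 0 columns of sample values were left unmapped. Depth is unknown, as neither file type holds reads.

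Peaks were merged at a gap of 0 bp and annotated with GENCODE gene starts on the same build. A TSS is the start of a gene record, unless any transcript start is named. Symbols were placed for 21213 genes directly and 781 through an older symbol of 24892, leaving 188 ambiguous and 2710 unmatched. FPKM were tested by limma 3.58.1 with trend (R 4.3.3) on log2(FPKM + 1), for genes at 1 FPKM or more in at least 2 libraries, with all libraries of a table in 1 fit, contrasts between times or between KD and control, and Benjamini-Hochberg adjusted p below 0.05. The study's methods call the 2 libraries of a group biological replicates, but the labels do not say that they came from separate cultures, so p-values measure the spread between libraries, which may be technical. Scripts used python 3.11.15, numpy 2.4.6, pandas 2.3.3, scipy 1.17.1 and pysam 0.24.0, and the fit was tested on simulated data. Sequence came from the mm9 genome. Some genes and sequences that met these rules are not reported here.

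The members, gene lists and tests were chosen with earlier results of these data known. Named were the 10 promoter members with the highest lower score, the 6 largest called rises and 6 largest falls per time in parental cells (4 and 4 for KD, 3 and 3 for the interaction at 8 h) among genes whose groups did not overlap and whose higher mean was at least 5 FPKM, list genes with a member, and the 5 members farthest from a TSS. Alternatives changed the peak threshold, list length, overlap, promoter width, pseudocount (0.1), filter, normalization, libraries and replicate block.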

Additional observations from a re-analysis of the deposited data

Results flagged for a closer look

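The change with TGF-β differed between KD and control cells for 14 of the named genes with a member at their promoter. The test was the interaction (limma, adjusted p below 0.05), which called 4.06% of all genes at 8 h and 4.72% at 24 h. Each value is the log2 response in KD minus that in control. At 8 h it was 0.88 for Fst (adjusted p = 0.00200), 0.71 for Gchfr (0.0257), 0.66 for Il13ra1 (0.0163) and 0.51 for Slc27a4 (0.0236). Negative values at 8 h were -1.06 for Tmem171 (0.00850), -0.82 for Zfp367 (0.0183), -0.79 for Wdhd1 (0.0227), -0.71 for Msh6 (0.0227) and -0.66 for Chaf1a (0.0262). At 24 h it was 1.10 for Hist1h1c (0.0325), 0.86 for Adamts7 (0.0468), 0.70 for Matn2 (0.0483), 0.69 for Il13ra1 (0.00897), 0.63 for Dnajc22 (0.0107) and 0.62 for Fst (0.00510). Negative values at 24 h were -1.23 for Tmem171 (0.00308), -0.79 for Wdhd1 (0.0190), -0.78 for Mki67 (0.0392) and -0.73 for Zfp367 (0.0206). With only the groups compared in the fit, the member genes called went from 67 to 6 at 24 h and from 55 to 90 at 8 h. Both counts also moved widely when single libraries were left out. The 24 h calls were not checked gene by gene under these fits, so no conclusion is drawn from them. Fst, Gchfr, Il13ra1, Tmem171, Zfp367 and Wdhd1 were named by the largest values of this same test at 8 h. Their 8 h calls were thus fixed by the choice and are no further result. Genes named for their KD difference at the same time were chosen partly on the libraries that enter this test.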

How the results depend on the processing

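With only peaks at or above the median score of their list there were 1299 members, of which 66.6% overlapped the 2574, 79.1% were near a TSS, GC was 64.1%, ATAC overlap was 51.3%, 43.4% and 72.2% at 0, 8 and 24 h, the median FPKM of their genes was 9.66, 9.40 and 10.2, and 481, 611, 173, 323, 240, 31 and 29 genes were called (parental 8 h and 24 h, KD at 0, 8 and 24 h, interaction at 8 and 24 h). With lamin B1 lists of equal length there were 989 members, with 79.2%, 64.0%, ATAC 44.8%, 38.0% and 64.8%, median FPKM 7.95 at 0 h and 7.73 at 24 h, and 341, 450, 128, 225, 180, 19 and 29 genes called. Without members that have a 0 h peak within 1000 bp the median FPKM was 7.38 and 7.51 at 0 and 24 h, with an overlap of at least 50% it was 7.67 at 24 h, and with 2500 bp upstream of the gene it was 6.82, 6.59 and 6.83. The share near a TSS was 79.9% within 2500 bp and, by alternatives chosen after seeing the data, 81.0% from any transcript start and 67.3% for the middle 300 bp, where ATAC overlap was 38.0% at 0 h and 30.6% at 8 h. ATAC lists of equal length gave 38.2% at 24 h, and an ATAC overlap of at least 50% gave 37.9% and 31.2% at 0 and 8 h. A change of at least 1 on the log2 scale left 41, 124, 1, 1, 2, 1 and 2 genes. With only the groups compared in the fit, KD called 93 at 0 h and 88 at 24 h, and the interaction 90 and 6.

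Same-numbered control and KD libraries deviated together at 24 h (r = 0.368) but not at 0 h (-0.135) or 8 h (-0.113). Whether the numbers mark pairs is thus unknown, and the main fit treated the libraries as unpaired. A replicate block gave 30 and 44 genes for the interaction at 8 and 24 h and changed no KD count by over 1.5 times. Parental columns carry no replicate number. Leaving out 1 library gave 606 to 744 and 869 to 1066 genes for parental 8 h and 24 h, 70 to 458, 300 to 692 and 158 to 617 for KD at 0, 8 and 24 h, 2 to 172 and 8 to 374 for the interaction, and median FPKM of 7.44 to 7.62, 7.07 to 7.33 and 7.53 to 7.59. A pseudocount of 0.1, no filter on low values and quantile normalization left each count of called member genes within 1.5 times its value. Of 117 tests of named genes, 54 kept their call and direction under every alternative, 58 lost the call in at least 1, and 1 changed sign: Rpl11 at 24 h, 0.01 under quantile normalization. The cause of these shifts was not tested. Peak depth and the spread between ChIP or ATAC libraries limit every class comparison and could not be measured.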
